A study of Mus musculus with 12 samples.

Results

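A set of 9 regulators of early B-cell commitment was followed in mouse fetal liver progenitors: the transcription factors Ebf1, Pax5, Foxo1, Lef1, Bach2, Irf4, Mef2c and Bcl11a and the coactivator Pou2af1. They were chosen by gene symbol, and all 9 are among the 23420 genes of the deposited table. RNA was measured in 12 libraries, each from a tube of 100 sorted lineage-negative c-Kit+ fetal liver cells, in 4 groups of 3: PIR+ KO, PIR+ wt, PIR- KO and PIR- wt. PIR is the paired immunoglobulin-like receptor, a surface receptor encoded by the Pira genes and Lilrb3, and wt is wild type. The labels name no target gene, allele or strain for KO, so the knockout could not be checked in these data. Nothing in them says that libraries of a group came from separate embryos. The p-values measure the spread between these libraries, pulled by the fit toward that of other genes of like level.

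The values are normalized molecule counts: transcripts tagged with molecular barcodes, scaled per library by the authors. They summed to between 155374 and 284648 per library, and 1 molecule was estimated to be worth 0.490 to 0.775 in the libraries. The titles give the groups used here. The sort-marker field has the opposite PIR sign in 6 of the 12 libraries. The source names date 6 libraries to E12.5 and 6 to E14.5 (embryonic days), whereas only E12.5 stands in the series title. Every library dated E12.5 carries the PIR+ sign in the sort-marker field and every one dated E14.5 the PIR- sign. These 2 labels therefore cannot be told apart. In each subset E12.5 is the day of 2 wild-type libraries and 1 KO library, so genotype and day are partly confounded. Lilrb3 was listed at 0 in all 6 libraries titled PIR-. Whether PIR- cells carry the interleukin-7 receptor also differs between the series title and the marker field. In 5 libraries the globin gene Hba-a1 was above 100 (PIR+ KO replicate 1, PIR+ wt replicate 3, PIR- KO replicate 1 and PIR- wt replicates 2 and 3). B lineage was checked with 11 markers, Cd79a, Igll1 and Vpreb1 among them, whose summed level was 40.2 to 62.5 in PIR+ KO, 44.8 to 74.3 in PIR+ wt, 743 to 1146 in PIR- KO and 870 to 1157 in PIR- wt libraries. Dntt, which encodes terminal transferase, was at 0 in all 12.

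B-cell commitment begins when a lymphoid progenitor starts to express EBF1, which opens chromatin at B-cell genes and switches on Pax5. PAX5 then activates B-cell genes and represses genes of other lineages. FOXO1 acts with EBF1 at this step and drives the recombination genes Rag1 and Rag2, and in fetal liver the first B-cell precursors arise before the bone marrow takes over. MEF2C and BCL11A act earlier too, in multipotent and lymphoid progenitors.

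Promoter sequences are shown for the 4 regulators whose RNA differed most between the subsets in wild type. Each spans 300 bases, from 250 before to 50 after the RefSeq start (build GRCm38.p6), all on the plus strand, and capitals mark matches to a searched motif.
Pou2af1 (chr9:51213440-51213739): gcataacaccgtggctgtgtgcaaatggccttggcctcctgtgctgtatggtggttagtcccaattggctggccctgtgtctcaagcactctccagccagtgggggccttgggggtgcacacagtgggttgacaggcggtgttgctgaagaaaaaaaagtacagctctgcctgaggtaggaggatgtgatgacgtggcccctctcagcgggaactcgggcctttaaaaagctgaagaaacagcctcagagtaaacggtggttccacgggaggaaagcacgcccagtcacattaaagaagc
Lef1 (chr3:131110047-131110346): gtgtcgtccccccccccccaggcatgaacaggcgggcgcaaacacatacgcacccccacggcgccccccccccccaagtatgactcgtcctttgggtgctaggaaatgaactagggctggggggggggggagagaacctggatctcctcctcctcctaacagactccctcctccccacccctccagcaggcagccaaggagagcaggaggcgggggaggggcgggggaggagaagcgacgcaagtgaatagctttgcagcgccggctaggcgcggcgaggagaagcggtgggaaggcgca
Foxo1 (chr3:52268087-52268386): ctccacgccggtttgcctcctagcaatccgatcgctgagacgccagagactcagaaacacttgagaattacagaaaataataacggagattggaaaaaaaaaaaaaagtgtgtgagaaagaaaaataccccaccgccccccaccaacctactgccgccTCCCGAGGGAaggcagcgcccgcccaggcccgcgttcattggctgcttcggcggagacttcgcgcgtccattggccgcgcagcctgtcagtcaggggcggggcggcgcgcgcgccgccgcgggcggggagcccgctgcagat
Ebf1 (chr11:44617850-44618149): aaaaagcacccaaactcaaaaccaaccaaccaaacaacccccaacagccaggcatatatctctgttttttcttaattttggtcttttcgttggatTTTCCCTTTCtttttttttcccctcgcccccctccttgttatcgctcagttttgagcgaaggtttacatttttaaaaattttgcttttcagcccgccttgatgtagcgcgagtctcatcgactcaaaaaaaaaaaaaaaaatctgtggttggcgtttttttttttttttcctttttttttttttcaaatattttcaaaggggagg

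Both strands were searched for 8 motifs. These were the half-sites TCCC and GGGA with 2 bases between them for EBF, the octamer ATGCAAAT that POU2AF1's partners bind, TGTTTAC for FOXO, CTTTGAT for LEF1 and TCF, TGAGTCA, the core of the site type bound by BACH2 and its partners, a pair of GAAA with 2 bases between them for IRF, CTA and TAG with 4 bases between them for MEF2 and the E-box CAGNTG. The Foxo1 window holds an EBF match, TCCCGAGGGA at bases 159 to 168, a motif found in 0.904% of 32851 mouse promoter windows of the same length. The Ebf1 window holds an IRF match on the minus strand at bases 96 to 105, where the plus strand reads TTTCCCTTTC; that motif occurs in 3.44% of windows. No match lies in the Pou2af1 window or in the first of 4 Lef1 windows, which says only that these letters are not there. The shares of the other motifs ran from 1.74% for the octamer to 51.4% for the E-box. Each printed window holds at most 1 match, so no motifs overlap there. The Ebf1 window lies within the gene as GENCODE M21 annotates it (chromosome 11, 44617317 to 45008091), because the RefSeq start used lies inside that span. Pou2af1 is annotated on chromosome 9 from 51213708 to 51240080, Foxo1 on chromosome 3 from 52268336 to 52353221 and Lef1 on chromosome 3 from 131110471 to 131224356, all on the plus strand.

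**Figure D1:**
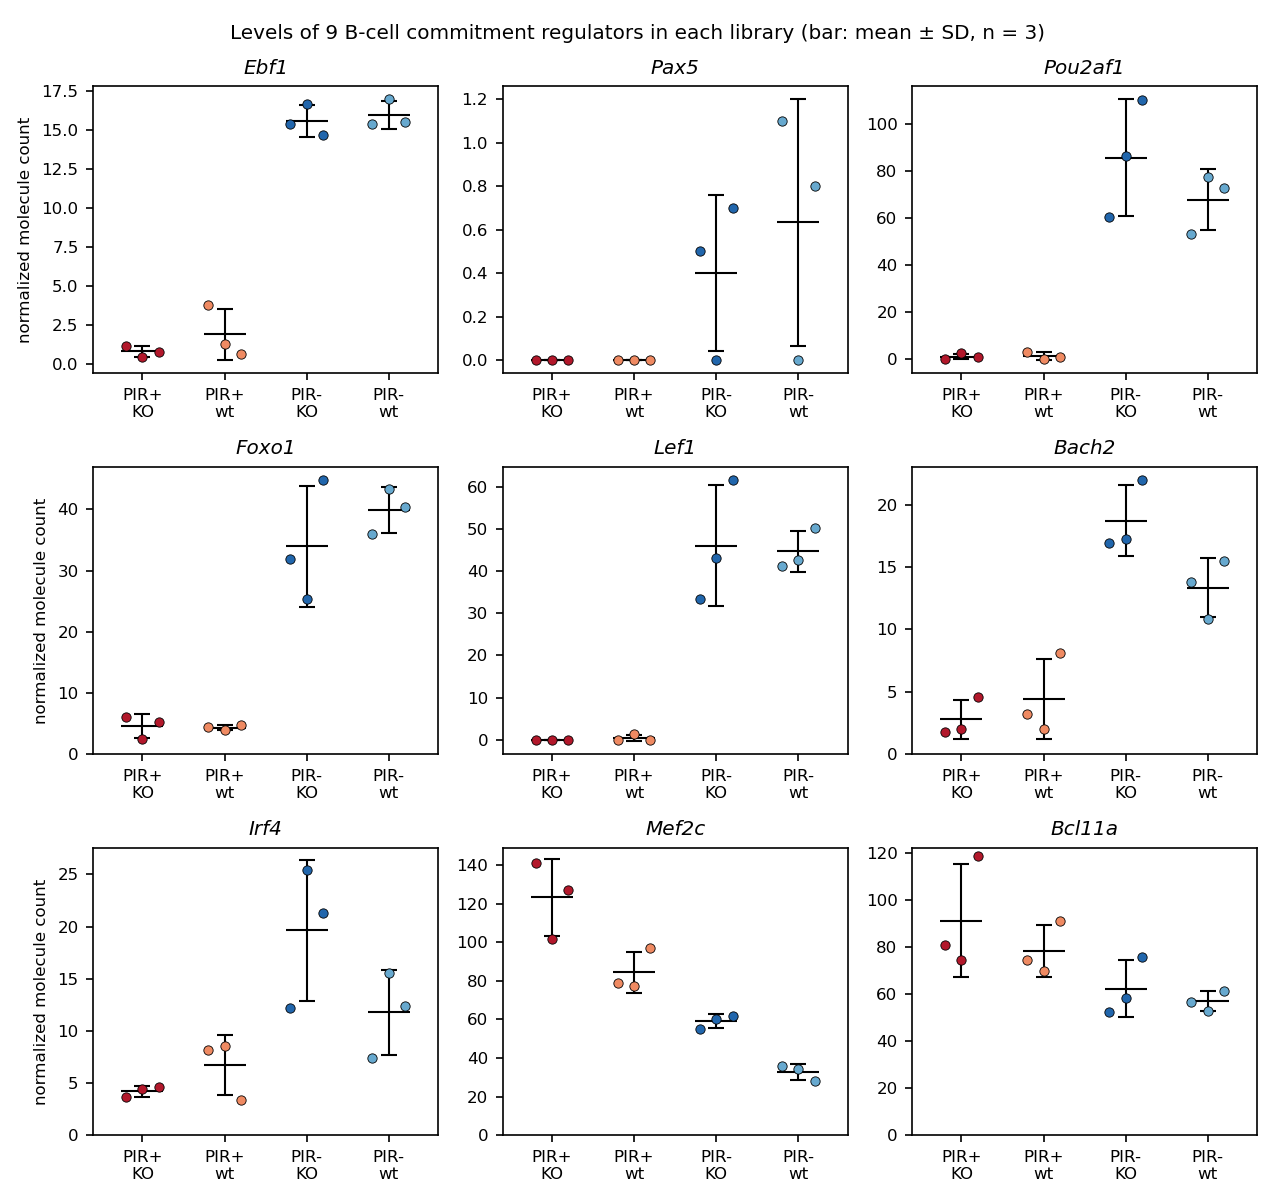
Normalized molecule counts (y, linear, own scale per gene) of the 9 regulators in each of the 12 libraries (points), by group (x), with mean ± SD as bars (n = 3). Ebf1, Pou2af1, Foxo1, Lef1 and Bach2 lie lower in all 6 PIR+ than in all 6 PIR- libraries, Mef2c lies higher, and Pax5 is at or near 0 throughout.

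PIR+ cells were set against PIR- cells within each genotype. Transcripts of Ebf1, Pou2af1, Foxo1, Lef1 and Bach2 were several-fold lower in PIR+ than in PIR- cells of both genotypes, and Mef2c was higher. Of the 8 regulators tested in wild type, 5 fell and 1 rose, against 44.4% of all 4542 tested genes called (3.72% lower, 40.6% higher). In KO cells 6 fell and 2 rose, against 25.5% called (2.97% lower, 22.5% higher). Genes were tested where at least 3 libraries had a value of 10 or more. Ebf1, Pou2af1, Foxo1, Lef1, Bach2 and Irf4 reached 10 in PIR- libraries only. Passing that filter therefore fixed their direction, and these counts describe the genes without supporting it. The exception is Irf4 in wild type, where 2 of 3 PIR- libraries reached 10 and the filter only favoured that direction. Mef2c and Bcl11a reached 10 in all 12 libraries and Pax5 in none. In bulk samples, fewer cells that express a gene and less RNA per cell cannot be told apart.

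Ebf1 had 1.2, 0.5 and 0.8 in PIR+ KO and 3.8, 1.3 and 0.7 in PIR+ wt libraries, against 15.4, 16.7 and 14.7 in PIR- KO and 15.4, 17.0 and 15.5 in PIR- wt libraries. The PIR- libraries of both genotypes lay in 1 narrow band, and no PIR+ library reached it. The log2 fold change of value + 1 was -3.19 ± 0.40 (SE) in KO (limma adjusted p = 2.08e-10) and -2.67 ± 0.40 in wild type (limma adjusted p = 4.44e-08). The mean was 18.7-fold lower in KO and 8.26-fold lower in wild type. These folds are rough, because the PIR+ means rest on an estimated 4 molecules in KO and 9 in wild type. The KO effects in the 2 subsets differed by -0.52 ± 0.57, which was not called (limma adjusted p = 0.982). Pax5, the next factor in the cascade, was listed at 0 in all 6 PIR+ libraries, against 0.5, 0 and 0.7 in PIR- KO and 1.1, 0 and 0.8 in PIR- wt libraries. Those values correspond to an estimated 2 molecules over the PIR- KO libraries and 3 over the PIR- wt libraries, too few to test, so a difference in Pax5 was not detectable at this depth.

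Pou2af1 encodes a coactivator (OBF-1) that binds OCT1 and OCT2 on the octamer of immunoglobulin promoters. It had 0, 2.4 and 0.8 in PIR+ KO and 3.2, 0 and 0.7 in PIR+ wt libraries, against 60.4, 86.5 and 110.2 in PIR- KO and 53.0, 77.5 and 72.9 in PIR- wt libraries. The subsets were far apart and the genotypes overlapped within each. Its log2 fold change of value + 1 was -5.52 ± 0.34 in KO (limma adjusted p = 2.89e-27) and -5.14 ± 0.34 in wild type (limma adjusted p = 3.94e-25).

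Lef1, an HMG-box factor of the Wnt pathway that pro-B cells need for survival and proliferation, followed the same order. It was listed at 0 in 5 of the 6 PIR+ libraries and at 1.3 in PIR+ wt replicate 2, against 33.4, 43.2 and 61.7 in PIR- KO and 41.3, 42.6 and 50.4 in PIR- wt libraries. Its fitted log2 changes, -5.51 ± 0.37 in KO (limma adjusted p = 2.4e-24) and -5.11 ± 0.37 in wild type (limma adjusted p = 2.48e-22), depend on the added 1 and are no bound on the fold.

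Foxo1, a forkhead factor held in check by PI3K and AKT signalling, was reduced but present in PIR+ cells. Its values were 6.1, 2.4 and 5.3 in PIR+ KO and 4.4, 3.9 and 4.7 in PIR+ wt libraries, against 31.8, 25.4 and 44.8 in PIR- KO and 36.0, 43.4 and 40.3 in PIR- wt libraries. The mean was 7.39-fold lower in PIR+ than in PIR- KO cells (log2 change -2.68 ± 0.29, limma adjusted p = 5.91e-13). In wild type it was 9.21-fold lower (-2.94 ± 0.29, limma adjusted p = 4.54e-15).

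Bach2, a repressor that restrains myeloid genes in B-cell precursors, had 1.8, 2.0 and 4.6 in PIR+ KO and 3.2, 2.0 and 8.1 in PIR+ wt libraries. It had 16.9, 17.3 and 22.0 in PIR- KO and 13.8, 10.8 and 15.5 in PIR- wt libraries. The subsets did not overlap, although PIR+ wt replicate 3 came close to the lowest PIR- wt library. Bach2 fell by 2.44 ± 0.36 on the log2 scale in PIR+ relative to PIR- KO cells (limma adjusted p = 3.67e-08) and by 1.55 ± 0.36 in wild type (limma adjusted p = 0.000346). Over all tested genes, 2.4% lay lower in all 6 PIR+ than in all 6 PIR- libraries.

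Irf4, an interferon regulatory factor that acts with IRF8 at the pre-B-cell stage, was called lower in PIR+ than in PIR- cells of the KO and missed the threshold in wild type. It had 3.6, 4.4 and 4.6 in PIR+ KO and 8.2, 8.5 and 3.4 in PIR+ wt libraries, against 12.2, 25.4 and 21.3 in PIR- KO and 7.4, 15.5 and 12.4 in PIR- wt libraries. PIR+ wt replicates 1 and 2 lay above the lowest PIR- wt library. The log2 change was -1.93 ± 0.34 in KO (limma adjusted p = 2.83e-06) and -0.76 ± 0.34 in wild type (limma adjusted p = 0.0592). The wild-type value was -1.21 after median-of-ratios scaling (limma adjusted p = 0.00827), but 0.15 without the globin-rich libraries. Keeping the libraries whose sort-marker field matches the title leaves the same wild-type libraries, PIR+ replicates 1 and 2 and PIR- replicate 1, so the value is again that of a single PIR- wt library. It passed the threshold without PIR+ wt replicate 1 (-0.93), PIR+ wt replicate 2 (-0.95) or PIR- wt replicate 1 (-1.03). The KO effects in the 2 subsets differed by -1.18 ± 0.48 on the log2 scale (PIR+ minus PIR-), which did not pass (limma adjusted p = 0.603, unadjusted 0.0155).

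Mef2c ran the other way. This MADS-box factor, which favours lymphoid over myeloid fate in multipotent progenitors, had 141.2, 101.9 and 127.0 in PIR+ KO and 78.7, 77.6 and 96.9 in PIR+ wt libraries, against 55.1, 60.5 and 61.7 in PIR- KO and 36.0, 34.1 and 27.9 in PIR- wt libraries. Its 4 groups did not overlap at all, and their order was PIR+ KO, PIR+ wt, PIR- KO, PIR- wt. Between subsets it rose by 1.04 ± 0.20 on the log2 scale in KO (limma adjusted p = 1.39e-05) and by 1.34 ± 0.20 in wild type (limma adjusted p = 1.49e-08). The deposited scale places the median tested gene 0.39 higher in PIR+ than in PIR- KO cells and 0.51 higher in wild type. Once median-of-ratios scaling brought that median to about 0, Mef2c was still called, at 0.64 in KO (limma adjusted p = 0.00192) and 0.84 in wild type (limma adjusted p = 5.87e-05). Over all tested genes, 17.7% lay higher in all 6 PIR+ than in all 6 PIR- libraries.

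Bcl11a, a zinc-finger factor required for B-cell development and known as a repressor of globin switching, was near the median gene. It had 80.6, 74.4 and 118.6 in PIR+ KO and 74.2, 69.7 and 90.8 in PIR+ wt libraries, against 52.4, 58.2 and 75.7 in PIR- KO and 56.7, 52.7 and 61.3 in PIR- wt libraries. The KO libraries of the subsets overlapped, and the wild-type ones did not, as for 47.6% of all tested genes. Its log2 changes were 0.53 ± 0.20 in KO (limma adjusted p = 0.0367) and 0.45 ± 0.20 in wild type (limma adjusted p = 0.0579). Median-of-ratios scaling ended the KO call (0.14, limma adjusted p = 0.519) and gave -0.06 in wild type. The KO value was also not called without PIR+ KO replicate 3 (0.33), PIR- KO replicate 1 (0.42), PIR- KO replicate 2 (0.50) or the globin-rich libraries (0.49).

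The subsets were also set apart within the 6 libraries labelled E12.5 and within the 6 labelled E14.5. For Ebf1, Pou2af1, Foxo1, Lef1, Bach2 and Mef2c the order within each label follows from that over all libraries and adds nothing to it. Irf4 and Bcl11a overlapped over all libraries. For Irf4 all 3 PIR+ libraries lay below all 3 PIR- libraries within both labels. For Bcl11a they lay above at E12.5 and overlapped at E14.5. Each set of 3 mixes wild-type and KO libraries. Irf4 reached the filter's value of 10 in PIR- libraries only. That fixed its direction at E12.5, where all 3 PIR- libraries reached it, and favoured it at E14.5. The share of all tested genes so ordered within a label is not given, so these orders are a description.

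**Figure D2:**
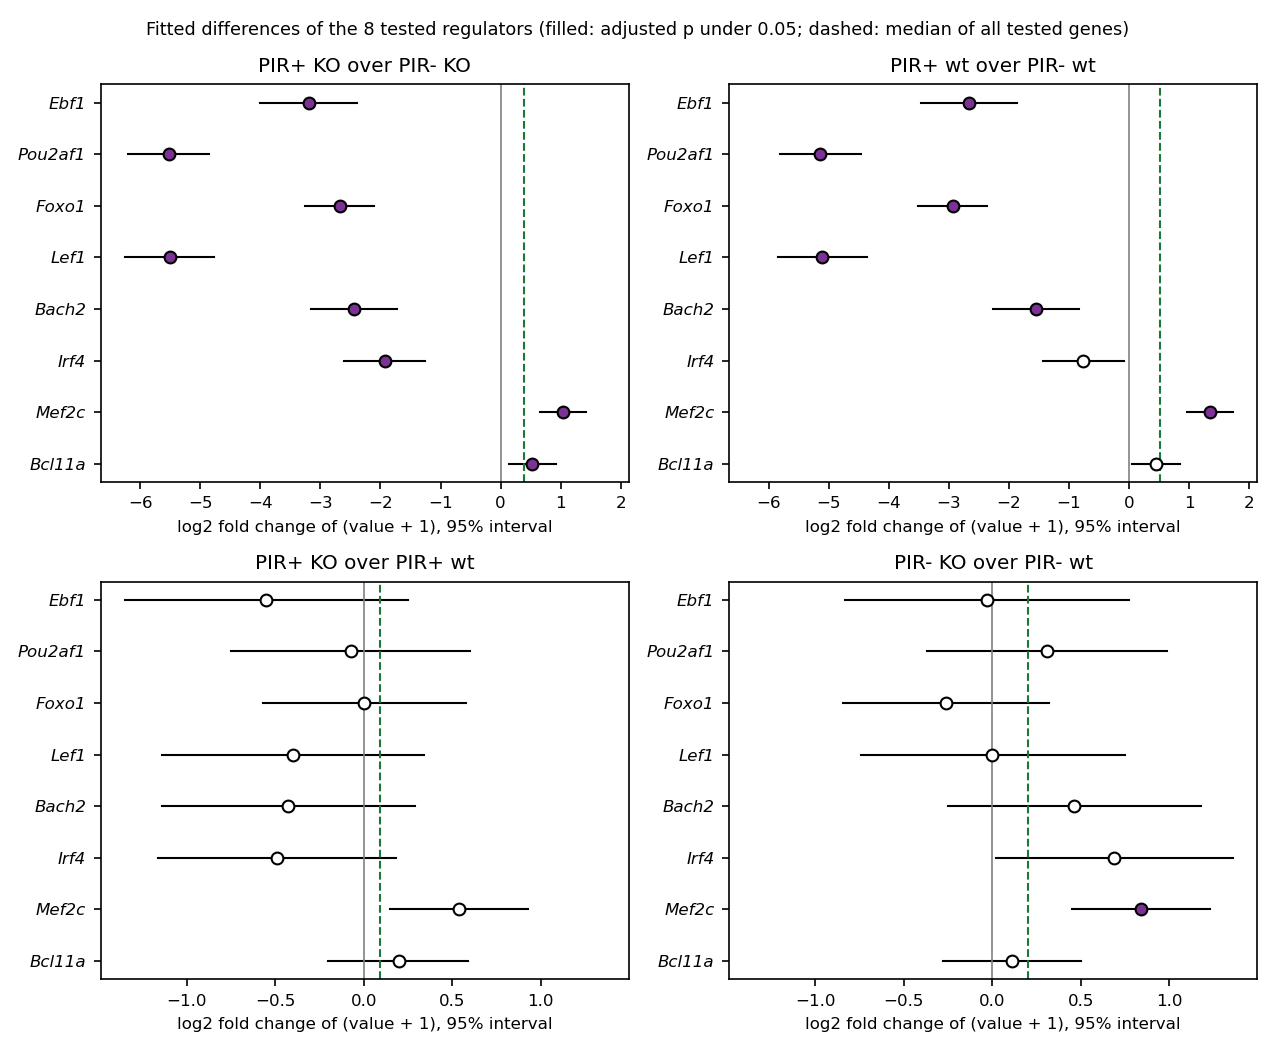
Log2 fold change of value + 1 (x) with its 95% interval for the 8 tested regulators (y) in 4 comparisons. Filled points have an adjusted p under 0.05, the grey line is 0 and the dashed line is the median of all tested genes. In the lower panels the single filled point is Mef2c, in PIR- KO over PIR- wt cells.

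KO was compared with wild type within each subset. In PIR- cells Mef2c was 59.1 ± 3.52 in KO and 32.7 ± 4.24 in wild-type libraries (SD, n = 3 each), a 1.81-fold higher mean. It rose by 0.84 ± 0.20 on the log2 scale (95% interval 0.45 to 1.23, limma adjusted p = 0.00549), the 1 regulator of 8 called, against 1.3% of all tested genes. The change was 0.64 after median-of-ratios scaling (limma adjusted p = 0.0151). It was not called without PIR- KO replicate 2 (0.82, limma adjusted p = 0.0525), without the globin-rich libraries (0.75, limma adjusted p = 0.289) or with matching sort-marker fields (0.75, limma adjusted p = 0.105). The last 2 of these leave the same 3 PIR- libraries, with 1 in wild type, and differ in the PIR+ libraries that share the fit. With matching fields Irf4 was called in its place, at 1.53 (limma adjusted p = 0.0413).

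In PIR+ cells no regulator of the 8 was called by limma, against 0.903% of all tested genes; 1 of them, Mef2c, had an unadjusted p under 0.05 (0.00719). Mef2c averaged 123 ± 19.9 in KO and 84.4 ± 10.8 in wild-type libraries, 1.46-fold higher, with a log2 change of 0.54 ± 0.20 (limma adjusted p = 0.314). All 3 KO libraries lay above all 3 wild-type libraries, as 8.04% of tested genes did in PIR+ cells and 14.4% in PIR- cells. The same order of Mef2c within each day label, with 1 library against 2 in each subset, follows from this and is no further observation. The authors' deposited table gives Mef2c a DESeq2 p of 0.00343 for PIR+ wt against PIR+ KO, without saying whether it is adjusted. The KO effects on Mef2c in the subsets differed by -0.31 ± 0.28 (limma adjusted p = 0.982).

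The other regulators did not pass the test between genotypes. Ebf1 differed by -0.03 on the log2 scale in PIR- cells, with a 95% interval of -0.83 to 0.77, and by -0.55 in PIR+ cells (-1.35 to 0.25). Pou2af1 differed by 0.31 in PIR- cells (-0.37 to 0.99), Foxo1 by -0.26 (-0.84 to 0.32) and Lef1 by 0.00 (-0.74 to 0.75). Bach2 was 18.7 ± 2.84 in PIR- KO and 13.4 ± 2.38 in PIR- wt libraries, without overlap, and its change of 0.46 ± 0.36 was not called (limma adjusted p = 0.578). Irf4 was 19.6 ± 6.76 in PIR- KO and 11.8 ± 4.09 in PIR- wt libraries (0.69 ± 0.34, limma adjusted p = 0.344). Changes inside these intervals are not excluded by these data. In the authors' deposited table the p for PIR+ wt against PIR+ KO was 0.279 for Ebf1, 0.832 for Pou2af1, 0.942 for Foxo1, 0.323 for Bach2, 0.211 for Irf4 and 0.509 for Bcl11a.

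Genes known from the literature as activated by EBF1 or PAX5 were mostly lower in PIR+ cells. Of 21 such genes 14 were tested. In PIR+ relative to PIR- cells 9 fell and 2 rose in KO, against 2.97% of all tested genes called lower and 22.5% higher. In wild type 10 fell and 2 rose, against 3.72% lower and 40.6% higher. The median log2 change was -3.10 in KO and -2.90 in wild type, against 0.39 and 0.51 over all tested genes. The surrogate light chain gene Igll1 changed by -7.81 in KO and -7.30 in wild type, and its partner Vpreb1 by -6.42 in KO and -6.58 in wild type. Igll1 was listed at 0 in all PIR+ KO libraries and had 1.9, 0 and 0.7 in PIR+ wt libraries, against 185.9, 218.5 and 277.0 in PIR- KO and 233.2, 308.3 and 264.6 in PIR- wt libraries. Cd79a, which encodes the Ig-alpha chain and is a direct EBF1 target, changed by -7.19 in KO and -5.10 in wild type, and Vpreb3 by -6.36 in KO and -5.52 in wild type. The 2 that rose in both genotypes were Ptpn6, a phosphatase gene also used by myeloid cells, at 1.84 in KO and 2.37 in wild type, and Bank1, a B-cell scaffold gene, at 1.38 in KO and 1.31 in wild type. The Bank1 call ended in wild type after median-of-ratios scaling (0.90, limma adjusted p = 0.0517). In KO it ended without the globin-rich libraries (0.94, limma adjusted p = 0.117), with matching sort-marker fields (1.04, limma adjusted p = 0.121) and without PIR- KO replicate 1 (limma adjusted p = 0.0605). Igll1, Vpreb1 and others pass the filter through PIR- libraries alone, as Ebf1 does, and 9 tested members are also B lineage markers.

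**Figure D3:**
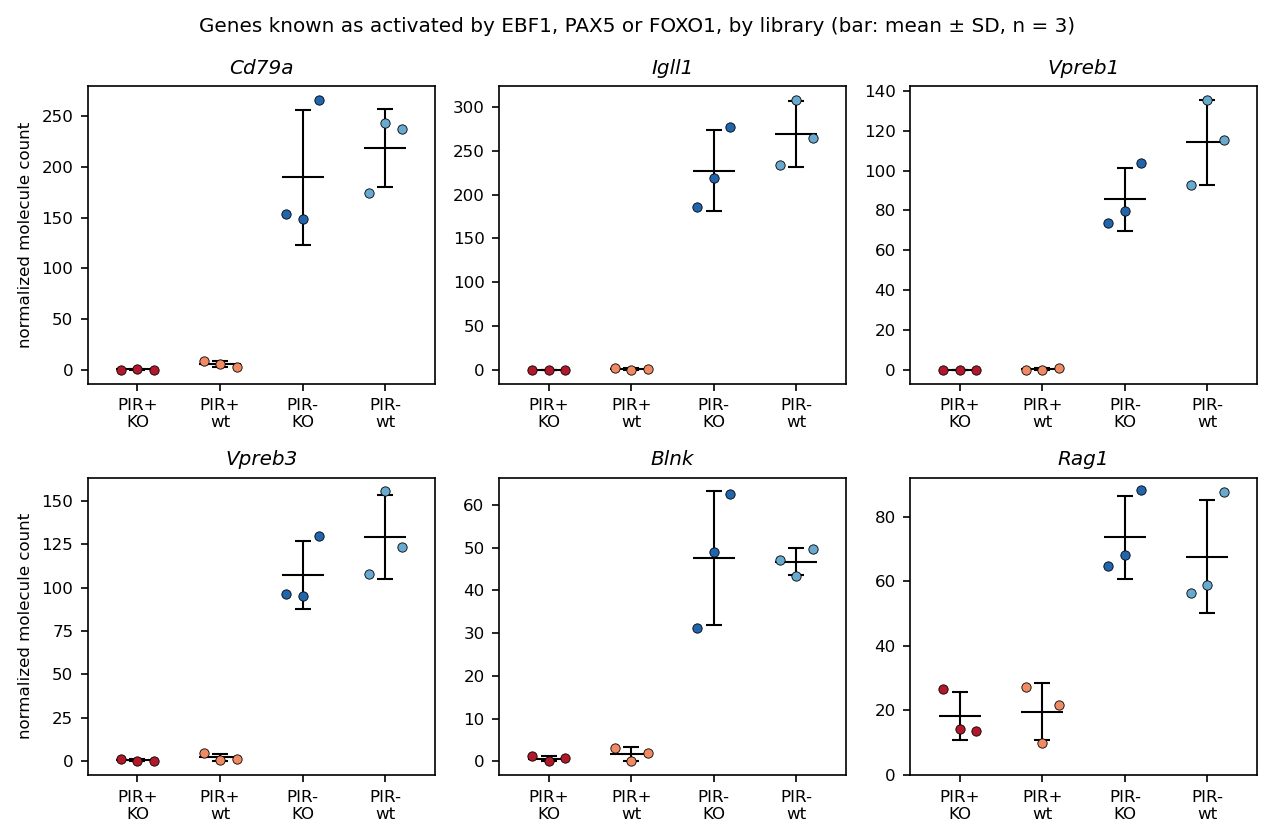
Normalized molecule counts (y, linear, own scale per gene) by group (x) of 6 genes known as activated by EBF1, PAX5 or FOXO1, with libraries as points and mean ± SD as bars (n = 3). All 6 lie lower in every PIR+ than in every PIR- library, and Cd79a reaches 1.0 at most in PIR+ KO, against 2.7 to 8.9 in PIR+ wt libraries.

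Between genotypes the activated genes did not pass the test in PIR- cells, where 0 of 14 were called (median -0.07, against 0.20 over all tested genes). In PIR+ cells 2 of 14 fell, against 0.462% of all tested genes. Cd79a fell to 0, 1.0 and 0 in KO, against 8.9, 5.9 and 2.7 in wild-type libraries (log2 change -2.33, limma adjusted p = 1.61e-10), and the KO effects on it in the 2 subsets differed (-2.09, limma adjusted p = 0.000397). These PIR+ KO values are at the floor, as 1 molecule was estimated to be worth 0.605, 0.490 and 0.761 there. Both changes depend on the added 1. The prior spread is read at the gene's mean over all libraries, which the PIR- libraries raise, so both p-values are rough. Vpreb3 was also called in PIR+ cells (-1.11, limma adjusted p = 0.0467), and the call ended after median-of-ratios scaling (limma adjusted p = 0.134) and without PIR+ wt replicate 1 (-0.64, limma adjusted p = 0.911), PIR+ KO replicate 2 (-0.92) or PIR+ KO replicate 3 (-0.92).

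Genes known as repressed by PAX5 or EBF1 were higher in PIR+ cells. Of 17 such genes 10 were tested; 9 rose and 0 fell in KO and 10 rose in wild type, with a median of 2.02 in KO and 3.72 in wild type, against 0.39 and 0.51 over all tested genes, of which 22.5% and 40.6% were called higher. Id2, which blocks E proteins and so B-cell development, had 17.0, 15.2 and 28.1 in PIR+ KO and 38.1, 73.0 and 51.5 in PIR+ wt libraries, against 0, 1.2 and 1.5 in PIR- KO and 0, 0.8 and 1.6 in PIR- wt libraries. Cd34, a stem and progenitor antigen gene, changed by 3.13 in KO and 4.47 in wild type, and Tyrobp, a myeloid and NK adaptor gene, by 3.02 and 4.89. Ccl3, a chemokine gene, changed by 2.52 in KO, and Cd7, found on T and NK precursors, by 3.99 in wild type. Id2, Csf1r, Ccl3, Itgal and Fcer1g reached the filter's level in PIR+ libraries alone and Cd7 in PIR+ wt libraries alone. That fixed the direction of Id2, Csf1r and Itgal in both genotypes and of Cd7 in wild type. It favoured the direction of Ccl3 and Fcer1g, which some PIR+ libraries of each genotype held under that level. The counts of rises therefore describe these genes and are no support for it.

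Genes of this list also rose in PIR- cells of the KO, as Mef2c did. The PIR- wt libraries enter this comparison and that of the wild-type subsets alike. Of the 10 tested, 5 rose and 0 fell in KO relative to wild type (median 0.91, against 0.20 over all tested genes and 1.08% of them called higher). Csf1r, the macrophage growth factor receptor gene, had 6.9, 7.5 and 3.7 in PIR- KO and 1.1, 0.8 and 0 in PIR- wt libraries (log2 change 2.13, limma adjusted p = 9.65e-06). Tyrobp had 13.8, 11.5 and 6.6 in PIR- KO and 8.0, 0.8 and 1.6 in PIR- wt libraries (1.69, limma adjusted p = 2.48e-05). Cd34 had 19.1, 19.0 and 21.3 in PIR- KO and 8.0, 5.4 and 4.7 in PIR- wt libraries (1.59, limma adjusted p = 6.1e-08). Csf1r and Cd34 did not overlap between the genotypes, and Tyrobp did. Flt3, a cytokine receptor gene of lymphoid progenitors that EBF1 and PAX5 silence, had 15.9, 20.2 and 16.9 in PIR- KO and 9.5, 3.1 and 6.2 in PIR- wt libraries (1.46, limma adjusted p = 2.04e-05). Notch1, the receptor gene of the T-cell pathway, had 28.6, 19.6 and 34.5 in PIR- KO and 13.3, 11.6 and 16.3 in PIR- wt libraries (0.93, limma adjusted p = 0.0115).

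Ebf1 was not called in the same libraries, where the 95% interval of its log2 change was -0.83 to 0.77. Without the globin-rich libraries 1 of the 10 genes was still called, Cd34, and with matching sort-marker fields 2 were, Cd34 and Csf1r. Both restrictions leave the same 3 PIR- libraries, with 1 in wild type (replicate 1), and in them Tyrobp differed by 0.12. Notch1 was not called without PIR- wt replicate 2 (0.83) or PIR- KO replicate 3 (0.76). The summed level of 21 neutrophil and monocyte markers, Csf1r and Tyrobp among them, had a median of 63.4 in PIR- KO (41.7 to 77.9) and 12.9 in PIR- wt libraries (up to 35.1). Of the 21, 15 were above 0 in some PIR- KO library and 14 in some PIR- wt library. Camp, S100a9 and Ctsg were among those at 0 in both groups. Of the 5 tested, 3 rose and 0 fell in KO, against 1.08% of all tested genes called higher. Csf1r and Tyrobp are among these 3 and were already counted as repressed genes. The summed level of 15 erythroid markers was 74.7 to 1428 in PIR- KO and 204 to 1659 in PIR- wt libraries. Of these, 12 were above 0 in PIR- KO and 11 in PIR- wt cells, with Hba-x, Hbb-bh1 and Car1 at 0 in both. The part of these cells in the changes of Mef2c and of the repressed genes was not tested.

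**Figure D4:**
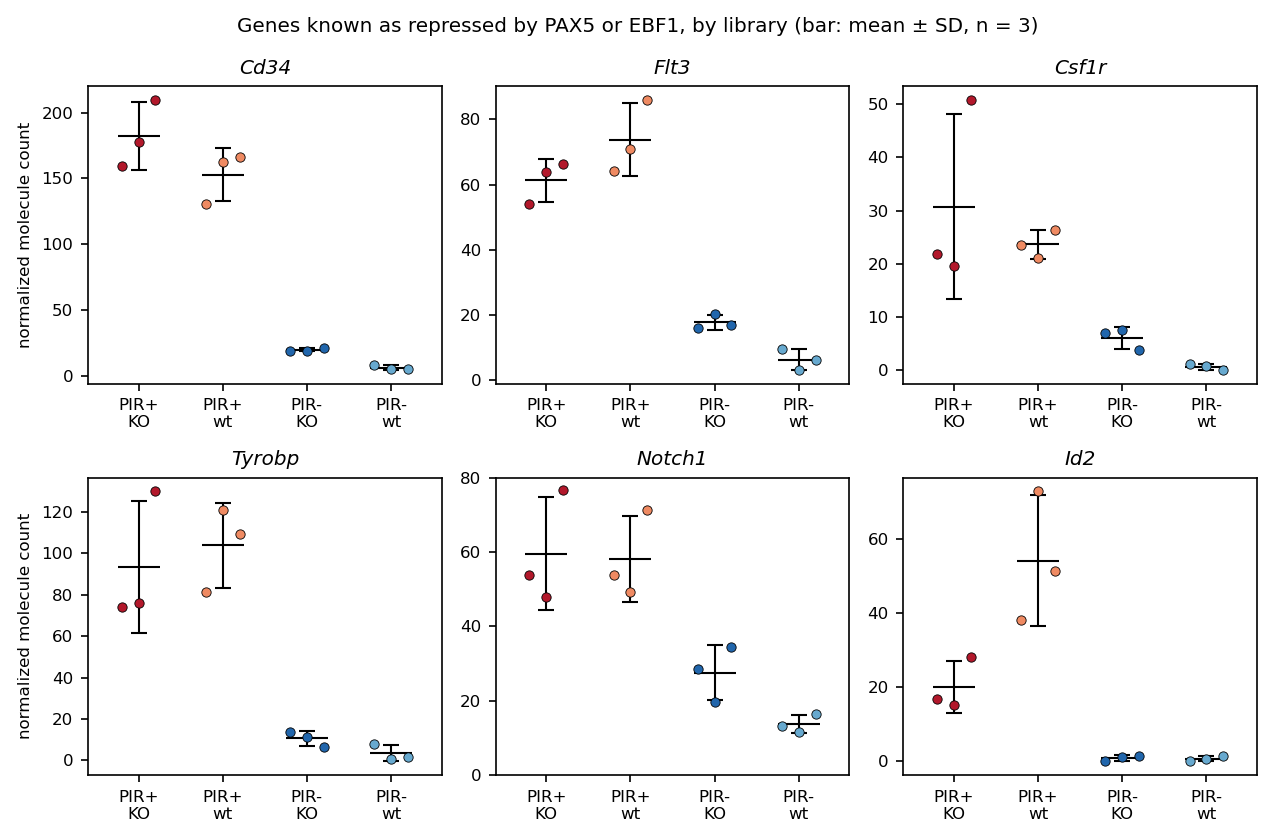
Normalized molecule counts (y, linear, own scale per gene) by group (x) of 6 genes known as repressed by PAX5 or EBF1, with libraries as points and mean ± SD as bars (n = 3). Cd34, Flt3, Csf1r and Notch1 lie higher in every PIR- KO than in every PIR- wt library; Id2 is near 0 in both PIR- groups.

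In PIR+ cells none of the 10 repressed genes rose in KO and 2 fell, against 0.462% of all tested genes called lower. Cd7 was listed at 0, 0.5 and 0 in KO, against 21.6, 19.1 and 14.9 in wild-type libraries. It passed the filter through PIR+ wt libraries alone, which fixed the direction of its KO difference and of its interaction, so its values are a description. Id2 changed by -1.39 (limma adjusted p = 0.0482). The Id2 call ended when any 1 of the 6 PIR+ libraries was left out. The KO effect was lower in PIR+ than in PIR- cells for 5 of the 10, against 0.462% of all tested genes: Cd7, whose sign the filter fixed, Csf1r (-1.89), Tyrobp (-1.87), Flt3 (-1.72) and Cd34 (-1.34). Without PIR+ wt replicate 2, 2 of the 5 were called, and without PIR+ wt replicate 1 or PIR+ KO replicate 1, 3 were. Both scalings left 3 called, and 0 were called without the globin-rich libraries or with matching sort-marker fields. No regulator was called in that comparison, in which 0.572% of all tested genes were; 1 of the 8, Irf4, had an unadjusted p under 0.05.

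Of 16 genes known as FOXO1 targets 9 were tested. In PIR+ relative to PIR- cells 5 fell and 2 rose in KO, against 2.97% of all tested genes called lower and 22.5% higher. In wild type 4 fell and 3 rose, against 3.72% lower and 40.6% higher, so the rises were near the share over all tested genes. The median log2 change was -0.73 in KO and -0.39 in wild type. After median-of-ratios scaling 5 fell and 1 rose in KO, and 6 fell and 3 rose in wild type; with matching sort-marker fields 2 fell and 1 rose in KO. Blnk, an adaptor gene of pre-B-cell receptor signalling, changed by -4.89 in KO and -4.36 in wild type. Rag1 changed by -2.01 in KO and -1.81 in wild type. Ccr7, a chemokine receptor gene, rose by 2.03 in KO and 3.71 in wild type. It reached the filter's level in PIR+ wt libraries alone, which fixed its direction in wild type only. Blnk reached that level in PIR- libraries alone, which fixed its direction in both genotypes. Il7r, whose transcription FOXO1 supports in pro-B cells, had a median of 11.8 in PIR+ KO and 15.9 in PIR+ wt libraries, against 23.5 in PIR- KO and 19.4 in PIR- wt libraries; it passed the test in KO (-0.73, limma adjusted p = 0.0332) and not in wild type. The Il7r call ended without the globin-rich libraries (-0.47, limma adjusted p = 0.418), with matching sort-marker fields (-0.27, limma adjusted p = 0.612) and without any 1 of PIR+ KO replicates 1 and 2 and PIR- KO replicates 1 and 3 (-0.58 to -0.71). Sesn1, a stress gene activated by FOXO factors, was the 1 member called between genotypes. It rose in PIR- cells, where 1.08% of all tested genes were called higher. It had 18.5, 17.3 and 24.2 in PIR- KO and 9.5, 6.2 and 7.8 in PIR- wt libraries (1.25, limma adjusted p = 0.00108), and it was not called without the globin-rich libraries (1.03, limma adjusted p = 0.235).

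Of 40 other transcription factors of early B-cell development 23 were tested. In PIR+ relative to PIR- cells 5 fell and 7 rose in KO, while 5 fell and 9 rose in wild type. The rises were near the 22.5% (KO) and 40.6% (wild type) of all tested genes called higher, and the falls stood against 2.97% and 3.72% called lower. After median-of-ratios scaling 7 fell and 4 rose in KO, and 8 fell and 6 rose in wild type. Factors that fell in both were Spib (-2.98 in KO, -2.92 in wild type), an ETS factor gene of B cells, Id3 (-1.47 in KO, -2.40 in wild type), Ets1 and the E-protein gene Tcf3. Spib reached the filter's level in PIR- libraries alone, which fixed its direction in wild type. In KO the filter only favoured it, as PIR- KO replicates 2 and 3 had 3.5 and 7.3. The wild-type call of Tcf3 ended without the globin-rich libraries (-0.70, limma adjusted p = 0.153), and the KO call of Id3 with matching sort-marker fields (-0.71, limma adjusted p = 0.0774). Ets1 averaged 7.87 ± 3.29 in PIR+ KO and 13.8 ± 2.18 in PIR+ wt libraries, against 47.1 ± 5.6 in PIR- KO and 45.2 ± 10.2 in PIR- wt libraries (SD, n = 3 each). Factors that rose in both included Id2 and Sfpi1, the gene of PU.1, which drives myeloid fate at high levels. Sfpi1 had 56.3, 53.9 and 71.5 in PIR+ KO and 45.7, 55.2 and 54.9 in PIR+ wt libraries, against 13.2, 16.1 and 19.1 in PIR- KO and 9.0, 7.7 and 10.1 in PIR- wt libraries.

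Cbfb was the 1 listed factor called between genotypes in both subsets. Of all tested genes, 0.903% were called between genotypes in PIR+ cells and 1.3% in PIR- cells. It encodes the partner subunit of RUNX factors, which act upstream of Ebf1. It had 12.1, 15.7 and 16.0 in PIR+ KO and 55.8, 44.1 and 50.8 in PIR+ wt libraries (log2 change -1.72, limma adjusted p = 6.65e-07). In PIR- cells it had 6.4, 14.4 and 18.4 in KO and 36.0, 34.1 and 33.4 in wild-type libraries (-1.45, limma adjusted p = 3.79e-05). No library overlapped between genotypes, and in PIR- cells the call ended without the globin-rich libraries (-1.10, limma adjusted p = 0.163).

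The genes whose pattern was most like each regulator's were ranked by Pearson's r of log2(value + 1) over the 12 libraries. The libraries fall into a PIR+ and a PIR- set and share their scaling, so the r values describe likeness and carry no test. For Ebf1 the closest were Vpreb3 (r = 0.989) and Cecr2 (0.984). For Pou2af1 they were Ptgr1 (0.988), 1700048O20Rik (0.986) and Igll1 (0.983). Vpreb1 was among the closest 3 for both Foxo1 (0.981) and Lef1 (0.987), after Cd79b (0.985) and Camk2d (0.982) for Foxo1 and Chchd10 (0.991) and B3gnt2 (0.989) for Lef1. Bach2 stood nearest to Lrmp (0.959), Bcat1 (0.959) and Atp1b3 (0.955), and Irf4 to Btg1 (0.916), Myb (0.910) and Vegfa (0.903). Mef2c was nearest to Il12a (0.986), Satb1 (0.970) and Fam117a (0.965), and Bcl11a to Usp3 (0.968), Arhgef1 (0.963) and Slc38a10 (0.961). Il12a, which encodes a cytokine subunit, had the group order of Mef2c: 60.7 to 68.5 in PIR+ KO, 39.3 to 49.1 in PIR+ wt, 24.9 to 26.5 in PIR- KO and 7.0 to 10.6 in PIR- wt libraries.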

How the data were processed

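Per the labels' protocols, cells were sorted into tubes, spiked with ERCC RNA, reverse-transcribed with an oligo-dT primer carrying a molecular barcode, and amplified by template switching and PCR. The authors deposited 1 table of normalized molecule counts, a signal divided by a factor per library; the submitters' processing notes name TopHat2, mm10 and DESeq2, without versions. How molecules were counted, filtered and scaled is not stated there. Whole counts were not claimed, because 93.0% to 94.2% of values under 15 lie within 0.055 of a multiple of 1 step, so depth is an estimate of 208195 to 442533 molecules per library. The authors also deposited p-values of 2 DESeq2 comparisons.

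Here limma 3.58.1 (R 4.3.3, trended prior) was fitted to log2(value + 1) of the 4542 genes that reached 10 in 3 or more libraries, with 4 group means. Benjamini-Hochberg adjusted p-values under 0.05 over all tested genes were called, and fold changes of low genes are understated by the added 1. The trended prior pulls each gene's spread toward that of genes of like level, so very small p-values depend on the genes fitted. Fitting all 14177 genes above 0 in any library changed them. For PIR+ wt over PIR- wt, limma then gave adjusted p = 1.31e-09 for Lef1, 2.02e-08 for Pou2af1 and 3.48e-05 for Ebf1. The Bcl11a call for PIR+ KO over PIR- KO ended (limma adjusted p = 0.0924). The test was run on simulated data drawn from PIR+ wt means, in which only PIR+ KO was changed. That simulation has no difference between the PIR subsets, so it cannot check genes near 0 in 1 subset and high in the other. Alternatives were other pseudocounts, filters and scalings, 2-group fits, a replicate block, a day term, and leaving out libraries. Named genes are all 9 regulators, up to 4 called genes per list with the largest change, and the 3 nearest patterns; Bank1, Ptpn6, Il7r, Tcf3, Notch1 and the interaction of Cd34 were added after their values were seen. Some genes that this rule names are not reported here. The regulators and lists were chosen with earlier results of these data known. Gene spans are from GENCODE M21 (GRCm38), promoters from RefSeq (GRCm38.p6), and plots used matplotlib 3.10.9 under Python 3.11.15.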

Additional observations from a re-analysis of the deposited data

How the results depend on the processing

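Samples with the same replicate number did not deviate together (18 pairs, r of -0.11 to 0.16, 1 over 0.1), so the numbers were not taken as pairs. With the replicate block 62 genes were called for PIR+ KO over PIR+ wt (41 without it) and 209 for PIR- KO over PIR- wt (59 without it), and Irf4 and Bcl11a passed for PIR+ wt over PIR- wt (adjusted p = 0.0452 and 0.00778). For PIR+ wt over PIR- wt, 2015 genes were called (1846 higher, 169 lower), 1025 after median-of-ratios scaling (524 higher, 501 lower), 1073 at a common library total, 1053 in libraries with matching marker fields, 700 without globin-rich libraries and 1320 to 2083 leaving out a library. For PIR+ KO over PIR- KO the 1158 (1023 higher, 135 lower) became 710 (369 higher, 341 lower), 725 at a common total, 576 without globin-rich libraries and 662 to 1418 leaving out a library. PIR+ KO over PIR+ wt had 27 without globin-rich libraries. PIR- KO over PIR- wt had 31 with no filter, 28 in the 2-group fit, 105 with matching fields, 35 without globin-rich libraries and 33 to 88 leaving out a library; regulators called there numbered 0 without globin-rich libraries and 0 to 1 leaving out a library. The interaction had 26 calls, 3 with no filter, 10 with matching fields, 6 without globin-rich libraries and 15 to 33 leaving out a library. Fewer libraries give fewer degrees of freedom in 2 of these sets, some with 1 library in a group, assumed to vary like the others; other causes were not tested.

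Signs turned in small log2 values. Under median-of-ratios scaling these were Bcl11a at -0.06 (PIR+ wt over PIR- wt) and -0.10 (PIR- KO over PIR- wt), Lef1 at -0.21 (PIR- KO over PIR- wt) and Foxo1 at -0.08 (PIR+ KO over PIR+ wt). At a common total they were Bcl11a -0.09, Lef1 -0.19 and Foxo1 -0.09 in the same KO comparisons, and with a pseudocount of 0.1 Foxo1 was -0.02. With matching fields Irf4 was 0.15 (PIR+ wt over PIR- wt), Bach2 0.66 (PIR+ KO over PIR+ wt), Ebf1 0.02 (PIR- KO over PIR- wt) and the Bach2 interaction 0.19. In comparisons within wild type or within PIR- cells this set holds the same libraries as the one without globin-rich libraries. Without globin-rich libraries Irf4 was 0.15 (PIR+ wt over PIR- wt) and Ebf1 0.02 (PIR- KO over PIR- wt), while for PIR+ KO over PIR+ wt Pou2af1 was 0.27, Bach2 0.21 and Foxo1 -0.15, and the Foxo1 interaction was -0.06. With a day term, added after seeing the data, Ebf1 was 0.05 (PIR- KO over PIR- wt). Leaving out a library gave, for PIR+ KO over PIR+ wt, Bach2 -0.78 to 0.02, Bcl11a -0.01 to 0.33, Foxo1 -0.20 to 0.33, Lef1 -0.60 to 0.00 and Pou2af1 -0.55 to 0.49; for PIR- KO over PIR- wt, Bcl11a -0.04 to 0.22, Ebf1 -0.08 to 0.01, Lef1 -0.23 to 0.21 and Mef2c 0.74 to 0.91; and for the interaction, Bcl11a -0.12 to 0.24 and Pou2af1 -0.86 to 0.18.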
